A study of Mus musculus and Homo sapiens
Mus musculus with 16 samples.

Results

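The bins described here are constitutive contact hubs of the mouse fetal forebrain: genomic bins of 10 kb that were touched by at least 15 listed interactions in each of 4 H3K4me3 PLAC-seq libraries. The rule gave 125 hub bins of 41447 bins that appear in any list (0.302%). The hubs were chosen by their number of listed interactions, so that number is given as a description with no test. PLAC-seq ligates DNA ends that lie near each other in the nucleus and an antibody then selects the joined fragments that bear a given histone modification. H3K4me3 is found at the promoters of active and poised genes, so a listed interaction usually has a promoter in at least 1 of its bins.

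The groups were 2 libraries of forebrain at embryonic stage E16.5 (replicates 1 and 2) and 2 at embryonic stage E12.5 (replicates 1 and 2), all labelled as mouse forebrain with no treatment or genotype. Strain, sex and pooling of the embryos are not stated in the sources, nor whether the replicates are different litters, and the tests therefore weigh library-to-library spread that could be technical. The lists held 35291 and 36794 interactions at E16.5, against 18413 and 16075 at E12.5. Bulk tissue cannot tell more cells with a contact from more contacts per cell. Of the markers of other cells, the microglial genes Cx3cr1, Csf1r and P2ry12 and the red-cell genes Hbb-bt and Hba-a1 had 0 listed interactions in every library, while the meningeal gene Foxc1 had 14 and 7 at E16.5 and 9 and 11 at E12.5. Among neuronal markers, Neurod6 had 21 and 15 at E16.5 and 0 and 0 at E12.5, Tbr1 27 and 20 at E16.5 and 3 and 3 at E12.5, and Myt1l 65 and 100 at E16.5 and 6 and 2 at E12.5. The markers did not all move alike. Of the other neuronal markers, Neurod2 had 3 and 1 at E16.5 and 1 and 1 at E12.5, and Tubb3 had 0 in every library. Of the radial glia markers, Pax6 had 10 and 8 at E16.5 and 20 and 13 at E12.5. Hes1 had 26 and 25 at E16.5 and 31 and 33 at E12.5, and Vim had 8 and 7 against 10 and 10. Sox2 had 30 and 23 at E16.5 and 28 and 27 at E12.5, and Hes5 had 5 and 4 against 3 and 1. Nes and Fabp7 had at most 2 in any library. The part of a changed cell mixture in the results below was not tested.

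Between these stages the forebrain wall passes from a population dominated by dividing radial glia, the neural stem cells, to one that also holds many young neurons. Genes that set the identity of these cells often lie in gene deserts, and their promoters contact distant enhancers spread through the flanking DNA. SOX, POU and homeobox proteins are transcription factors of neural progenitors and neurons, and HES and ID proteins keep progenitors from differentiating.

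Sequences at hub bins whose contact strength changed are shown first, as RefSeq gives them for GRCm38.p6, which has the same primary sequence as mm10. The promoter windows run from 250 bases before to 50 bases after the gene start, 5′ to 3′ on the gene's strand, with every CG in capitals because CG-rich promoters are those that usually carry H3K4me3. Emx2 and Sox2 stood in bins with weaker stable contacts at E16.5, and Zbtb18 and Id2 in bins with stronger ones.
Emx2, chr19:59458440-59458739, plus strand: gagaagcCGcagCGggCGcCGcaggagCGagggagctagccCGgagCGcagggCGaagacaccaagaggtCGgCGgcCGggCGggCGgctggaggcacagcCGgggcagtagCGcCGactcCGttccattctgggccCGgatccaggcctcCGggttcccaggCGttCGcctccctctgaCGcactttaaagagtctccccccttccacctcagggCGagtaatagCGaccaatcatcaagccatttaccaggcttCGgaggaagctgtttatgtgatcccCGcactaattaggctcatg
Sox2, chr3:34649745-34650044, plus strand: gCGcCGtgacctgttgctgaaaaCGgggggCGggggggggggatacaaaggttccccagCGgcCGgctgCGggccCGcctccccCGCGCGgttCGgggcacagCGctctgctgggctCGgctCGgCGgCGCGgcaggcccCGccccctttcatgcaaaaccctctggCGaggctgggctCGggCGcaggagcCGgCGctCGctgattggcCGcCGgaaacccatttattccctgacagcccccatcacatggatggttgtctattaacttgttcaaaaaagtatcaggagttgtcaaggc
Zbtb18, chr1:177442101-177442400, plus strand: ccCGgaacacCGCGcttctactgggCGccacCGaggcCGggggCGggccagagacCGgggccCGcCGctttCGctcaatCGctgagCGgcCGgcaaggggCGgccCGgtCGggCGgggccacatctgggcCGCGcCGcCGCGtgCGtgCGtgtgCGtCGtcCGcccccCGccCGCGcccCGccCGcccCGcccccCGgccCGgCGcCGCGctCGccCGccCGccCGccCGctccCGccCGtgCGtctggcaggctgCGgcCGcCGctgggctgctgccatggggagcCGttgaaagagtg
Id2, chr12:25096043-25096342, minus strand: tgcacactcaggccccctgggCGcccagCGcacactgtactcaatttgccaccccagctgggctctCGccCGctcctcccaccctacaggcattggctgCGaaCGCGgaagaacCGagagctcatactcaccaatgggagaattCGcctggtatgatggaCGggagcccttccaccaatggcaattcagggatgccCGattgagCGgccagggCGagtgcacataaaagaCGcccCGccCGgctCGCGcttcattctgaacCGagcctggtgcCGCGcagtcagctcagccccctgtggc
These windows held 26 CGs for Emx2, 27 for Sox2, 51 for Zbtb18 and 21 for Id2. The window of Six3, also in a bin with weaker stable contacts at E16.5, held 14 CGs and is not printed. Zbtb18 had 5 starts in its hub bin, of which 1 is shown. Across the 81 RefSeq starts of 69 genes in hub bins the median was 24 CGs, against 20 over 7907 starts in other listed bins and 14 over all 20085 promoters in the table. On either strand, the letters TATAAA were found in 17.3% of the hub promoters, 7.04% of those in other listed bins and 12.7% of all promoters. CCAAT was found in 51.9%, 36.9% and 38.1%, and GGGCGG in 65.4%, 62.2% and 47.0%, in the same order.

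MicroRNA genes lay in 3 hub bins (2.4%, against 0.709% of listed bins), and 2 of these had no coding gene placed in them. Their mature sequences are shown because 2 of the bins link distant hubs to each other; the seed, bases 2 to 8, is in capitals.
mmu-miR-9-5p of Mir9-2, chr13:83738821-83738843, plus strand: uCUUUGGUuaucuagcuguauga
mmu-miR-9-3p of Mir9-2, chr13:83738858-83738879, plus strand: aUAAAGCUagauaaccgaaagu
mmu-miR-125b-5p of Mir125b-1, chr9:41581940-41581961, plus strand: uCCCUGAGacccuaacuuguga
The miR-9 pair is abundant in neural progenitors and neurons, and miR-125b is a homologue of the worm microRNA lin-4. The 3 seeds differ from each other. The third microRNA hub bin holds Mir7687 beside Gse1.

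The 125 hub bins formed 99 separate regions, of which 79 were a single bin. A coding gene was placed in 89 hub bins (71.2%), against 19.8% of all listed bins: in 67 by its start and in 22 by an end, for genes with no start in the table used. A further 10 hub bins had only a long noncoding RNA placed in them, 16 overlapped a coding gene that was placed elsewhere, and 10 lay outside coding genes. The far end of a gene placed by its start was not counted. Among the 36 hub bins with no coding gene placed in them, 19 adjoined a hub bin that had one.

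Gene lists were counted at hub bins. The lists were chosen with earlier results of these data known, so the counts are a description and no measure of enrichment. Of 12 autosomal Sox genes listed, 6 lay at a hub bin: Sox1 and Sox2, which mark neural progenitors, Sox4 and Sox11, which act in young neurons, and Sox6 and Sox9. Of 7 POU genes, 3 did (Pou3f1, Pou3f2 and Pou3f3). The counts were 5 of 53 homeobox genes (Emx2, Lhx2, Six3, Meis2 and Tshz3), 5 of 38 bHLH and Notch effector genes (among them Hes1, Id2, Id4 and Mycn) and 14 of 85 zinc finger and other transcription factor genes. Signalling genes gave 10 of 54, among them Fgfr2, Wnt7b and Epha4, and genes of neurite growth and guidance gave 4 of 58 (Nrp1, Nrp2, Rnd3 and Enc1). Gad1, which makes the transmitter GABA, was the 1 gene of 38 in the synapse list. No gene of 20 housekeeping genes and none of 21 markers of microglia, vessels, blood and meninges lay at a hub bin. Only 11 of the 20 and 8 of the 21 lay at any listed bin. Lists this short would usually have none at the share over all genes, so nothing is read from either. Over all 20665 autosomal coding genes the count was 90 (0.436%), but only 8435 of them lay at any listed bin. Of the listed genes, all 53 homeobox and 77 of 85 zinc finger and other factor genes did, so the shares are not like for like. A few hubs held genes known for posterior or mesodermal patterning: Hoxd13, Evx2, Foxc2 and the Hoxb7 and Hoxb8 bin. Hoxd13 had 22 and 21 listed interactions at E16.5 and 21 and 17 at E12.5.

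The hub with the highest lowest number was Mn1, a transcriptional coregulator gene (chr5:111410001-111420000). It had 70 and 68 listed interactions at E16.5, against 69 and 69 at E12.5. Sox6 followed with 68 and 73 at E16.5 and 63 and 69 at E12.5. Jun, a subunit of the AP-1 factor, had 55 and 54 at E16.5 and 54 and 55 at E12.5. The values of these 3 hubs differed little between stages although the E16.5 lists were about 2.09 times as long.

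Rnd3, a regulator of the actin skeleton, had 67 and 78 at E16.5 and 52 and 61 at E12.5. Zfp703 had 64 and 72 against 54 and 51, and Enc1, which encodes an actin-binding protein of neurons, had 61 and 62 against 48 and 54, each with E16.5 given before E12.5. Sox11 had 92 in both E16.5 libraries, the highest hub value there, and 45 and 57 at E12.5. The E16.5 values of these 4 hubs lay above both E12.5 values. At the rule's edge, 12 bins had exactly 15 in their lowest library, such as Nrp1, with 56 and 60 at E16.5 and 20 and 15 at E12.5, and Id2, with 54 and 55 at E16.5 and 19 and 15 at E12.5. Just outside it, 22 bins had 14 in their lowest library, among them those of Igfbp5, Meis1 and Nr2f1.

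Across the 125 hubs the lowest, median and highest numbers were 15, 33 and 92 in E16.5 replicate 1 and 15, 34 and 92 in E16.5 replicate 2. They were 15, 24 and 69 in E12.5 replicate 1 and 15, 26 and 69 in E12.5 replicate 2. Both E16.5 values exceeded both E12.5 values in 75 hubs, the values overlapped in 42, and both were lower in 8; over 4758 bins with a sum of at least 10, 53.2% were higher and 5.59% lower, and nothing is read from this since the number chose the hubs. The median ratio of E16.5 to E12.5 was 1.30 over hubs, with a range of 0.626 to 3.31.

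**Figure D1:**
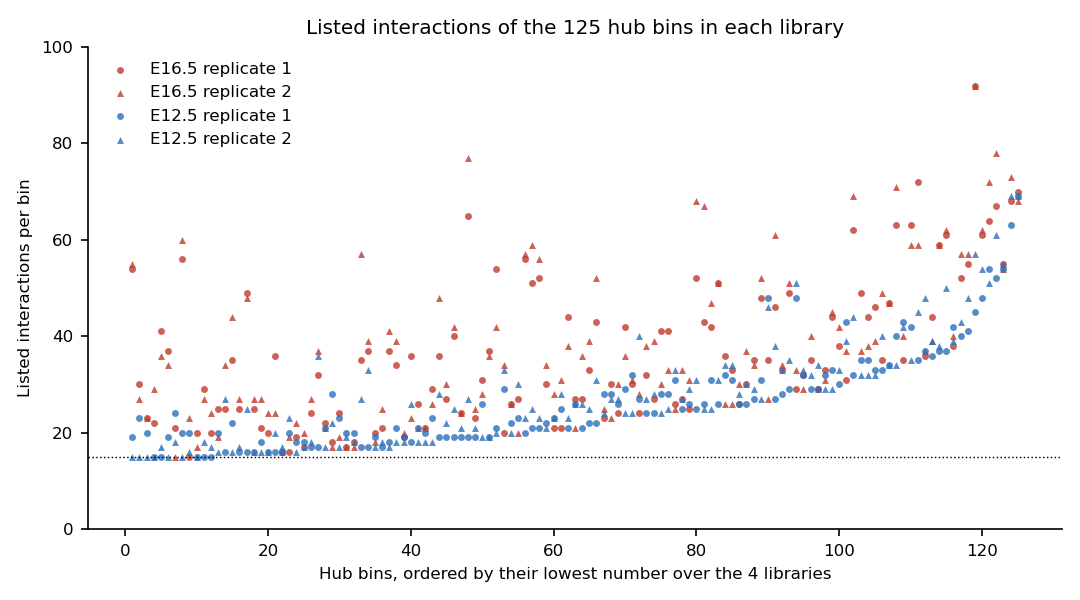
Listed interactions (vertical axis, number per bin) of the 125 hub bins (horizontal axis, ordered by their lowest value over the 4 libraries), with E16.5 in red and E12.5 in blue; circles are replicate 1, triangles replicate 2 and the dotted line the rule's minimum of 15. Values at E16.5 reach 92 and those at E12.5 reach 69, and the stages overlap in 42 hubs.

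Interactions that touched a hub were 4532 and 4736 at E16.5, or 12.8% and 12.9% of the list, and 3354 and 3533 at E12.5, or 18.2% and 22.0%. A bin with many partners has to reach far, so distance is partly fixed by the rule and is given as a description. The median distance was 455 and 440 kb at E16.5 and 420 and 410 kb at E12.5, against 280 and 270 kb at E16.5 and 240 and 230 kb at E12.5 for all other interactions. The mean over the 4 libraries was 431 ± 20.2 kb for hub interactions and 255 ± 23.8 kb for the others (SD, n = 4). Interactions of other bins that reached 15 in that library, a closer match chosen after seeing the data, had medians of 400 and 360 kb at E16.5 and 340 and 280 kb at E12.5, so the gap was 86.2 kb on average in place of 176.2 kb. Hub interactions were listed farther apart at E16.5 than at E12.5 by medians (447.5 ± 10.6 against 415 ± 7.07 kb, SD, n = 2 each), and the exact permutation p of 0.33 is the smallest that this design allows.

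Partners of hubs seldom held a gene start of their own. A coding gene start or end lay in both bins of 3.13% and 3.19% of hub interactions at E16.5 and 2.59% and 3.03% at E12.5, against 9.47% and 10.8% at E16.5 and 9.95% and 11.8% at E12.5 of the others (exact two-sided sign-flip p = 0.13, n = 4, the smallest that 4 libraries allow). The others were not matched to hub interactions for distance or for the number of interactions per bin. Per hub, a median of 2.63% of partner bins held one. Every listed pair had an observed over expected ratio of at least 2.00, and listing chose the hubs. The ratio is therefore partly fixed by the rule and is given as a description. Its median for hub interactions was 4.09 and 4.46 at E16.5 and 4.19 and 4.39 at E12.5. For the others it was 3.94 and 3.97 at E16.5 and 3.95 and 3.91 at E12.5. Between stages the exact permutation p for hub interactions was 1 (n = 2 each).

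**Figure D2:**
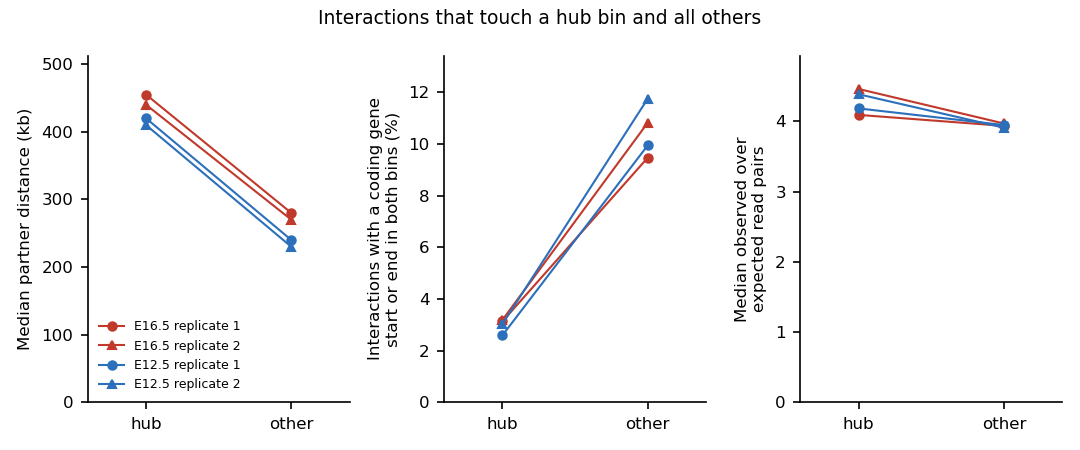
Each panel gives 1 value per library for interactions that touch a hub (left) and all others (right): median distance in kb, the percentage with a coding gene start or end in both bins, and the median ratio of observed to expected read pairs; all vertical axes start at 0. Distance and the observed over expected ratio, both partly fixed by the rule, are higher for hub interactions in all 4 libraries. The share with genes in both bins is lower.

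Most hubs looked to 1 side. In 59 hubs every partner lay on the same side, in 89 at least 90% did, and in 8 the partners were split with 40 to 60% at higher coordinates. The mean share on a hub's main side was 91.4% and 90.6% at E16.5 and 91.9% and 91.3% at E12.5. Other bins that reached 15 interactions in that library had 88.7% and 88.1% at E16.5 and 89.1% and 89.7% at E12.5 (exact p = 0.13, n = 4). The medians were 100% for hubs in each library and 95.8% to 100% for the other bins (exact p = 1, n = 4). Where the gene's strand was known (65 hubs), the main side lay downstream of the start in 36 and upstream in 28. The side differed between both E16.5 and both E12.5 libraries in 1 hub.

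Sox6 was the most extreme, with 80 partners, all at lower coordinates and all downstream of its start, out to 1000 kb. Kif26b, a kinesin family gene, had 76 partners, all downstream and out to 990 kb. All 75 partners of Mn1 lay at higher coordinates, within 860 kb, and 73 of them formed an unbroken run of adjacent bins. The bin inside Mn1 and the Emx2 gene body bin each had 69 partners, all at higher coordinates. Id2 had 67 and Pou3f3 58 partners, all upstream of the start. The widest spans belonged to hubs with partners on both sides: 1930 kb for Sox11, with 62 partners at lower and 57 at higher coordinates, 1850 kb for the bin next to it, 1830 kb for both Zfp608 bins and 1820 kb for the bin near Nr2f1 and for Hoxd13. The narrowest spans, 330 kb, were those of the bin near Pitpnc1 and of Prdm16, with 31 partners on its downstream side. Over all hubs the span had a median of 970 kb, and the longest run of adjacent partner bins a median of 20 bins.

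Hubs rarely listed each other: 10 pairs joined 2 hub bins, each of them listed in all 4 libraries and none within a region. The bin of Mir9-2, inside the long noncoding RNA gene C130071C03Rik, and its 3 neighbours all contacted the bin of the noncoding RNA gene Gm41011 600 to 630 kb away. The Mir9-2 contact had 715 and 397 read pairs at E16.5 and 331 and 327 at E12.5, with a log2 change of 0.38 (SE 0.21, edgeR adjusted p = 0.266). The neighbouring bin at 600 kb had 321 and 208 at E16.5 and 125 and 94 at E12.5, and rose by 0.90 on the log2 scale (SE 0.21, edgeR adjusted p = 0.00218).

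The Mir125b-1 bin contacted the hub beside Sorl1, which encodes a sorting receptor, over 370 kb with 436 and 296 read pairs at E16.5 and 166 and 147 at E12.5. That contact rose by 0.86 on the log2 scale (SE 0.20, edgeR adjusted p = 0.00277). Both bins also contacted the hub near Ubash3b. The remaining pairs joined 1600014C23Rik to Vegfa, the endothelial growth factor gene, and both Ier5l bins to Gm39784. Neither the Vegfa pair (243 and 233 read pairs at E16.5, 163 and 200 at E12.5) nor the Ier5l pairs passed the test.

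Hubs together had 6303 partner pairs over the 4 libraries. Of these, 2033 (32.3%) were listed in all 4 libraries, against 9.27% of the 52240 pairs that touched no hub; the rule asked for many listed pairs in every library, so this difference is partly built in and is no finding. Partners listed in both E16.5 and neither E12.5 library, called gained here, were 760 (12.1%), against 15.2% of all listed pairs. Partners listed in both E12.5 and neither E16.5 library, called lost, were 167 (2.65%), against 1.83% of all listed pairs. The excess of gained over lost did not hold at equal list length: with every list cut to the length of the shortest by lowest FDR, gained partners were 237 and lost partners 427. Of the hub pairs listed at a stage, 64.0% were listed in both libraries at E16.5 and 58.1% at E12.5, against 37.6% at E16.5 and 33.6% at E12.5 of the other pairs, which is likewise a description of what the rule selected. Gained partners lay at a median of 495 kb and lost ones at 290 kb. Pairs that touched no hub had the same order, with 320 kb for gained and 210 kb for lost pairs.

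In 90 hubs more partners were gained than lost and in 25 the opposite held. Over all 58543 listed pairs 8910 were gained and 1074 lost, and the E16.5 lists were about 2.09 times as long. The counts per hub here and below are at full list length, and nothing is read from an excess of gains. Sox11 gained 29 and lost 2 of 119 partners. The bin shared by Tshz3 and Gm36722 gained 27 and lost 0 of 99. Id2, an inhibitor of bHLH factors, gained 27 and lost 1 of 67, at a median distance of 630 kb for the gained ones. Nrp1, the semaphorin receptor, gained 25 and lost 0 of 68, and Rasgef1b gained 24 and lost 0 of 59.

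The most losses were at Emx2, a homeobox gene of the cortical primordium. The bin of its gene body (chr19:59460001-59470000) lost 13 and gained 3 of 69 partners, and the bin of its start lost 8 and gained 2 of 63. The lost partners lay at a median of 400 and 350 kb, and the few gained ones at 900 and 815 kb. The Mir9-2 bin lost 9 and gained 0 of 58. Zfp36l1, an RNA decay factor, lost 6 and gained 3 of 62, and Id4 lost 5 and gained 9 of 79.

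The most stable sets were those of Mn1, with 61 of 75 partners in all 4 libraries (81.3%), Prdm16, a zinc finger gene of radial glia, with 22 of 31 (71.0%), Enc1 with 44 of 64 (68.8%), Sox6 with 54 of 80 (67.5%) and Irf2bp2 with 24 of 37 (64.9%). At the other end, Nrp1 had 5 of 68 (7.35%).

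**Figure D3:**
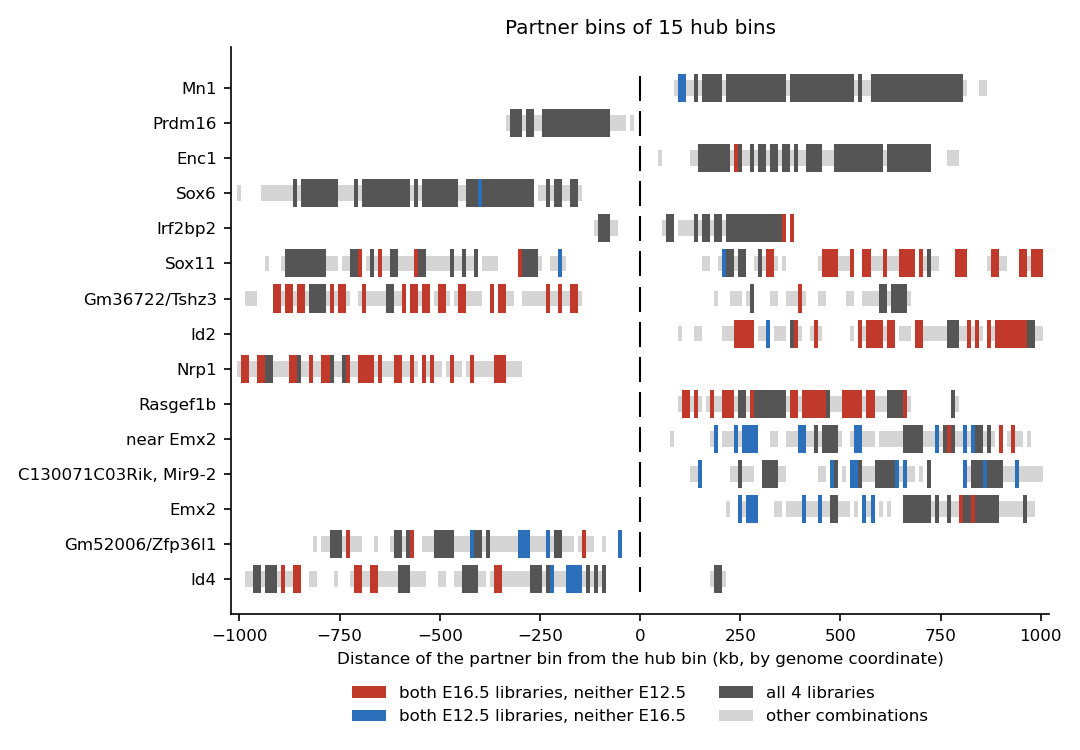
Partner bins (10 kb each) of the 5 hubs with the highest share listed in all 4 libraries (top), the 5 with most gained (middle) and the 5 with most lost partners (bottom), placed by distance from the hub bin in kb along the chromosome. Red marks partners listed in both E16.5 and neither E12.5 library, blue the opposite, dark grey all 4 and pale grey any other combination; partners of Mn1, Sox6 and Nrp1 lie on a single side.

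The strength of contacts listed in all 4 libraries was tested on read pairs. Listing itself rests on read pairs, so these contacts were selected for high counts in every library, but not for a difference between stages. These 6875 pairs held 284719 and 261138 read pairs at E16.5 and 210341 and 204659 at E12.5, and changes are relative to them. Of the 2033 hub contacts 159 (7.82%) rose at E16.5 and 104 (5.12%) fell, at an edgeR quasi-likelihood adjusted p under 0.05; over all pairs tested 5.88% rose and 4.58% fell. With the authors' expected count as an offset the hub counts were 14 and 0, and with DESeq2 29 and 13. Over all 6875 pairs the counts were 18 and 0 with the offset and 59 and 39 with DESeq2. The hub counts that follow are again of rises and falls. Without E12.5 replicate 1 they were 69 and 53, without E12.5 replicate 2 they were 50 and 46, and without E16.5 replicate 2 they were 141 and 56. Called contacts lay in 87 hubs: 52 had only rises, 31 only falls and 4 both. The contacts that rose had a median distance of 550 kb, those that fell 330 kb and all hub contacts 420 kb. These medians were taken for hub contacts alone.

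Among the contacts that rose was one of the bin beside Pou3f3, which holds the noncoding Gm46091. It spanned 940 kb and had 91 and 58 read pairs at E16.5 and 16 and 14 at E12.5, a log2 change of 1.94 (SE 0.29, edgeR adjusted p = 9.2e-06). The stages did not overlap.

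Zbtb18, a zinc finger repressor of cortical neurons, contacted a bin inside Sdccag8 over 560 kb with 106 and 64 read pairs at E16.5 and 17 and 23 at E12.5 (log2 change 1.71, SE 0.27, edgeR adjusted p = 2.82e-05). Nfib, a nuclear factor I gene, had 126 and 74 at E16.5 and 26 and 25 at E12.5 over 940 kb. The Mir125b-1 bin had 181 and 131 at E16.5 and 50 and 46 at E12.5 over 210 kb. All E16.5 values again lay above those at E12.5.

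The strongest fall was at the Emx2 gene body: a contact over 690 kb had 22 and 28 read pairs at E16.5 and 60 and 66 at E12.5, and fell by 1.69 on the log2 scale (SE 0.26, edgeR adjusted p = 1.3e-05). A contact of the Sox2 gene body bin over 440 kb had 48 and 34 at E16.5 and 80 and 90 at E12.5. Sox1 had 68 and 53 at E16.5 and 108 and 119 at E12.5 over 160 kb. These counts are lower at E16.5 before any scaling.

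Sall1, a zinc finger gene, had 29 and 31 at E16.5 and 58 and 68 at E12.5 over 280 kb. Zfp36l1 contacted a bin inside Rad51b over 510 kb with 17 and 31 at E16.5 and 54 and 53 at E12.5. Lhx2, a LIM homeobox gene of the cortical primordium, contacted a bin inside Dennd1a over 260 kb with 47 and 40 at E16.5 and 76 and 70 at E12.5. Contacts of Six3os1, Id4, Axin2 and Prdm16 over 110 to 250 kb fell too.

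**Figure D4:**
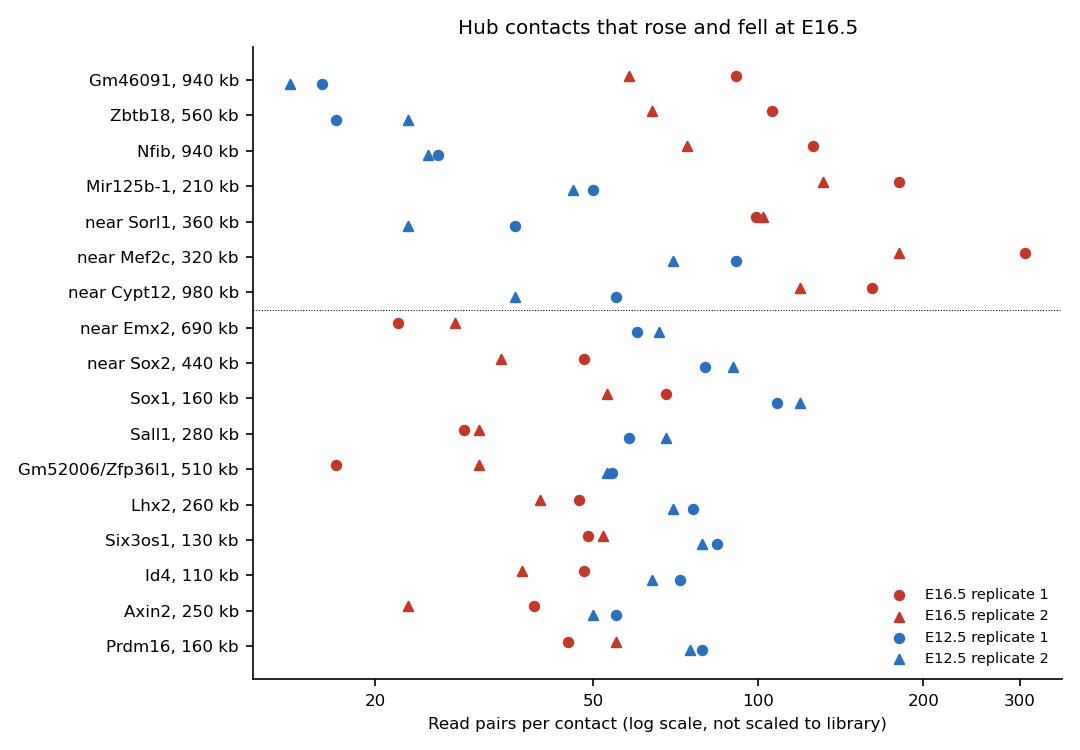
Read pairs (log axis, unscaled) of 7 hub contacts that rose (above the dotted line) and 10 that fell (below it), from those with the smallest p per direction and at most 1 per hub, in the 2 E16.5 (red) and 2 E12.5 (blue) libraries; circles are replicate 1 and triangles replicate 2. The stages do not overlap in any row.

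Summed over each hub's partners listed in all 4 libraries, strength rose in 25 hubs (20.0%) and fell in 22 (17.6%), against 12.4% and 13.0% of the 1181 bins tested. Scaled sums of both E16.5 libraries lay above both E12.5 libraries in 52 hubs (41.6%) and below them in 43 (34.4%), against 33.2% and 31.7% of all tested bins. With the expected count as an offset 13 rose and 0 fell: 10 of the 25 rises and 0 of the 22 falls kept their call. Over all 1181 bins that offset gave 109 rises and 9 falls. The median log2 change over all bins was then 0.151, against 0.00042 without it, so the loss of falls was not particular to hubs. The changes below are therefore relative to the read pairs of the tested table, and the cause of the difference was not tested. Without E12.5 replicate 2 the counts were 13 and 12, and without E12.5 replicate 1 they were 17 and 14. Sums are given per 100000 read pairs of the tested table.

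Zbtb18 rose most, with 298.2 and 214.1 at E16.5 and 125 and 130.9 at E12.5, a log2 change of 1.00 (SE 0.15, edgeR adjusted p = 0.000313); with the offset it was 0.35 (edgeR adjusted p = 0.0576) and the call was lost. Id2 had 100.1 and 96.9 at E16.5 and 53.2 and 46.9 at E12.5 (log2 change 0.98, SE 0.15, edgeR adjusted p = 0.000345). The Id2 sum covered only 6 of its 67 partners. The Gm46091 bin beside Pou3f3 had 384.6 and 313.6 at E16.5 and 190.6 and 175.4 at E12.5, while the Pou3f3 bin itself rose by 0.39 on the log2 scale. Adgrb1, an adhesion receptor gene, the bin inside Mn1, Tmem178b, Nfib and Gad1 rose as well. The Nfib sum covered only 4 of its 49 partners. It was 306 and 209 unscaled read pairs at E16.5 and 122 and 104 at E12.5. The 940 kb contact given above made up 126 and 74 of these at E16.5 and 26 and 25 at E12.5. With the offset, Adgrb1 and the bin inside Mn1 kept their call and Tmem178b, Nfib and Gad1 did not.

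The Sox2 and Emx2 hubs had the largest falls by size. The Sox2 gene body bin had 146.5 and 119.5 at E16.5 and 278.6 and 257 at E12.5, and fell by 1.01 on the log2 scale (SE 0.13, edgeR adjusted p = 0.000177). The Emx2 gene body bin had 165.8 and 158.5 at E16.5 and 320.4 and 292.2 at E12.5, and fell by 0.91 (SE 0.12, edgeR adjusted p = 0.000177). Sall1 had 180.2 and 175.8 at E16.5 and 307.1 and 323.5 at E12.5. Neither stage overlaps the other in these hubs.

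Six3, a homeobox gene of the anterior forebrain, had 137.3 and 136.7 at E16.5 and 223.9 and 221.8 at E12.5. Sox1, the Lhx2 bin at chr2:38350001, Zfp36l1, Prdm16 and Axin2, a negative regulator of Wnt signalling, fell by 0.56 to 0.80 on the log2 scale. Hes1, the Notch effector, fell by 0.53, and Sox9 and Id4 fell by 0.48 and 0.43.

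By gene list, 4 of 6 Sox hub bins fell (Sox1, Sox2, Sox6 and Sox9) and none rose, with a median log2 change of -0.39; the median over all 1181 bins was 0.00042. Sox4 had a log2 change of 0.22 (edgeR adjusted p = 0.215) and Sox11 one of 0.08 (edgeR adjusted p = 0.673). Of 6 homeobox hub bins 3 fell (Emx2, Six3 and the Lhx2 bin at chr2:38350001) and the Tshz3 bin rose. The Lhx2 bin at chr2:38330001 was not called (log2 change -0.32, edgeR adjusted p = 0.121). Of 5 bHLH and Notch bins 3 fell (among them Hes1 and Id4) and Id2 rose. Of 14 bins of zinc finger and other factors 3 rose (among them Zbtb18 and Nfib) and 2 fell (Prdm16 and Sall1). Signalling genes had 2 rises (Spry2 and a Dusp4 bin, both of genes that inhibit growth factor signalling) and 1 fall (Axin2) among 11 bins. The Dusp4 bin that rose starts at chr8:34800001. The Dusp4 bin next to it had a log2 change of 0.03 (edgeR adjusted p = 0.903). The 4 neurite bins had neither rises nor falls. Both RNA decay genes, Zfp36l1 and Zfp36l2, fell. The falls in these lists were not called with the expected count as an offset. The changes of Emx2, Lhx2, Sox6, Sox9 and Id4 were then 0.03 to 0.13, below the median of 0.151 over all bins. The other falls named here stayed negative. Of the rises named here, Zbtb18, Nfib and Spry2 lost their call with the offset, and Tshz3, Id2 and Dusp4 kept it. Over all 1181 bins 12.4% rose and 13.0% fell, and over hubs 20.0% and 17.6%, so the counts of several lists, such as the zinc finger list, lie near those shares. The lists were chosen with earlier results of these data known. The counts and the Sox median are therefore a description and no measure of a change of a gene family.

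Stable hubs by partner number were not alike in strength. Mn1 had a log2 change of -0.06 (edgeR adjusted p = 0.777) and Enc1 one of 0.22 (edgeR adjusted p = 0.19), whereas Sox6 fell by 0.38 (edgeR adjusted p = 0.0302) and Prdm16 by 0.56 (edgeR adjusted p = 0.00334). At full list length, the 25 hubs that rose had gained 246 and lost 18 partners, and the 22 that fell had gained 35 and lost 72. Over all 125 hubs 760 partners were gained and 167 lost. Both measures come from the same libraries and listing itself rests on read pairs. They are therefore not independent, and nothing is read from how they go together.

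**Figure D5:**
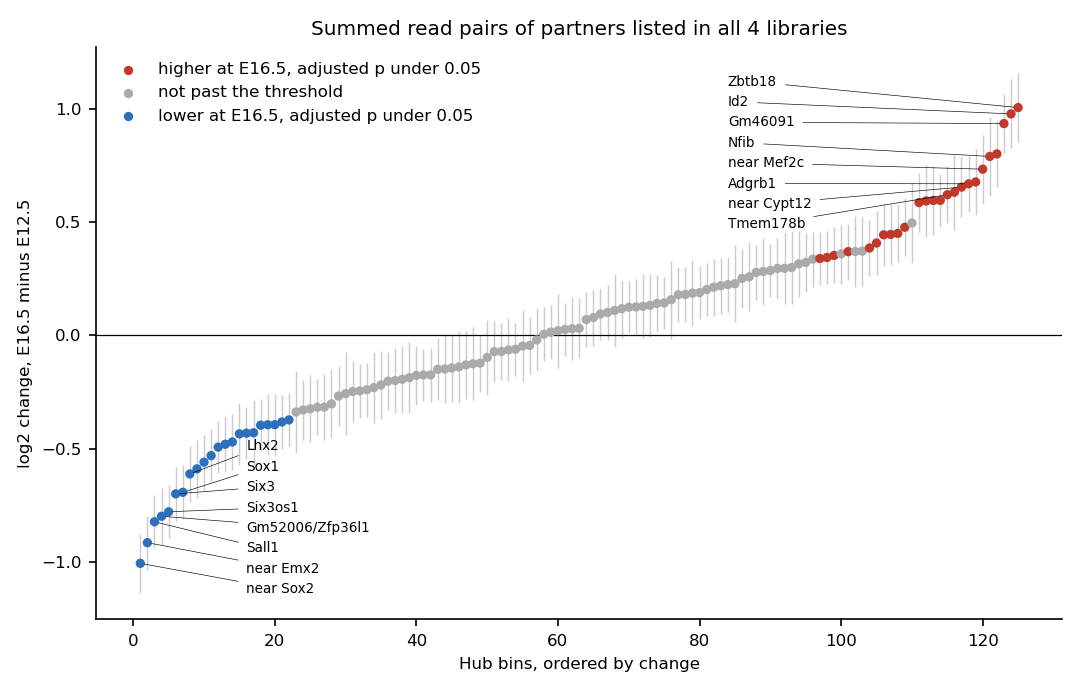
The log2 change (E16.5 minus E12.5, vertical axis, with its SE as bars) of the read pairs summed over partners listed in all 4 libraries, for the 125 hub bins in order of change. The 25 hubs that rose are red and the 22 that fell blue; Zbtb18, Id2 and the Gm46091 bin are at the top, and the bins near Sox2 and Emx2 at the bottom.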

How the data were processed

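H3K4me3 PLAC-seq of mouse forebrain was analysed in 2 libraries at E16.5 and 2 at E12.5; the other 12 of 16 samples were not analysed here. The submitters' processing notes name BWA, SAMtools and build mm10. Tool versions, the program that called interactions and its cut-offs were not given in the sources used here. Each deposited file covers 1 library and gives for every listed pair of 10 kb bins, per the file headers, the count of its read pairs, the expected value modelled by the authors (used as a score), a q-value named FDR, the count of interactions in its cluster and the cluster's −log10 p. The files hold pairs 20 to 1000 kb apart on 19 autosomes. Total depth is unknown, so an unlisted pair is not known to be uncontacted.

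Genes were placed by RefSeq starts of GRCm38.p6 where the promoter table had them, otherwise by the bins of both gene ends; "near" means no gene placed in the bin. Strength was tested with edgeR 4.0.16 in R 4.3.3 (TMM, robust quasi-likelihood, stage as the sole term, Benjamini-Hochberg over all 6875 pairs, or over 1181 bins with at least 3 such pairs). Sums count a pair in both its bins. On simulated counts, pairs changed 2-fold were recovered in 54% and 4-fold in 96% of cases, and bins in 97% and 100%. Library measures used exact tests over 4 libraries. The replicate chi-square was 1.75 times its degrees of freedom at E16.5 and 1.30 times at E12.5, so the 2 libraries of a stage were not copies of each other. It cannot tell whether they came from separate samples. Named items followed a rule: the 10 hubs with the highest lowest number, 10 contacts and 10 hubs per direction by p, and 5 each for gained, lost, stable, one-sided and widest; other genes were named as list members or after their values were seen, and some items the rule picked are not reported here. The members and lists were chosen with earlier results of these data known. Alternatives were no TMM, DESeq2 1.42.0, the expected count as an offset, distance classes, count filters, a replicate block, a quasi-dispersion of at least 1, each library left out, other thresholds, equal list lengths, a stricter FDR, clusters, summits and other gene placements.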

Additional observations from a re-analysis of the deposited data

How the results depend on the processing

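Of the 20 contacts and 20 summed hubs named by the rule, all kept direction and call without TMM, with the replicate block, with a quasi-dispersion of at least 1 and with pairs averaging 20 or more read pairs. With the expected count as an offset 4 of 20 contacts and 4 of 20 hubs kept their call. The Emx2 gene body bin then had a log2 change of 0.0151 and Lhx2 one of 0.13, both turned in sign. With this offset the median over all 1181 bins was 0.151, so both values lay below it and neither bin rose relative to that median. The cause was not tested. DESeq2 lost the call of 4 named contacts.

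Hub contacts that rose numbered 159 and those that fell 104. The counts were 29 and 13 with DESeq2, 14 and 0 with the expected count as an offset, and 99 and 72 for those averaging 40 or more, which tests fewer pairs. Leaving out each library gave 50 to 141 rises and 46 to 78 falls. For summed strength, DESeq2 gave 15 and 14 and the offset 13 and 0, against 25 and 22; leaving out each library gave 13 to 30 rises and 12 to 20 falls. With 1 bin per hub region, chosen after seeing the data, 20 rose and 16 fell. The replicate number as a block gave 202 and 137 contacts and 36 and 29 hubs; same-numbered libraries had a correlation of deviations of 0.138, and the labels do not say that numbers pair libraries.

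The number of hub bins was 257 with at least 10 interactions, 74 with at least 20, 78 with equal list lengths, 52 with an FDR under 0.0001, and 0 when clusters of neighbouring interactions were counted once; leaving out a library gave 130 to 164. Gained and lost partners were 237 and 427 with equal list lengths, and lost partners 101 and stable ones 3548 when a neighbouring bin counted as listed; stable ones were 1133 with an FDR under 0.0001. The share of hub interactions listed in both libraries of a stage was 64.0% at E16.5 and 58.1% at E12.5. It became 56.6% at E16.5 with equal list lengths, 57.3% and 50.5% with an FDR under 0.0001, and 83.4% and 75.5% with neighbouring bins. The distance gap of 176.2 kb became 182.5 kb with equal lengths or the stricter FDR, 175 to 178.3 kb when a library was left out, and 86.2 kb against other bins with at least 15 interactions, a set chosen after seeing the data. The mean share on the main side was 90.5% with summits only, against 91.3%. Hub bins with a coding gene were 108 by any part of a gene and 112 with neighbouring bins, against 89.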
